A study of Homo sapiens with 6 samples.

Results

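The sodium pump, or Na,K-ATPase, carries sodium out of the cell and potassium into it at the expense of ATP, and the gradients it builds drive many other transporters. Its alpha subunit is the catalytic chain and the binding site of cardiac glycosides, its glycosylated beta subunit is needed for folding of the pump and its delivery to the plasma membrane, and small membrane proteins of the FXYD family tune its kinetics in a tissue-dependent way. The rule listed 7 genes of this complex and took, for each, the probe set annotated to exactly 1 gene with the highest mean over all 6 arrays. It found 5 of the 7, among 18417 genes in all: the beta subunit genes ATP1B1, ATP1B2 and ATP1B3, and the FXYD genes FXYD1 and FXYD5. Of the other 2, FXYD6 had no such probe set, because the annotation gives its probe set also to the readthrough gene FXYD6-FXYD2, and ATP1A4 was not analysed here. No alpha subunit gene was therefore among the measured genes, and only the beta and FXYD genes could be set side by side. The list was proposed with the SAHA minus control differences of these arrays in view, and ATP1B2 was chosen by its large rise among them, so the differences of all 5 genes are given as descriptions with no test. Each of the 5 had 1 such probe set and no filter on low values was used, so all 5 are described.

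The cells were A204, an established human line from a rhabdoid tumour, a cancer marked by loss of the SWI/SNF subunit gene SMARCB1. Total RNA was hybridised to 6 Affymetrix whole-transcript arrays, 3 of cells treated for 12 h with SAHA, the histone deacetylase inhibitor vorinostat, and 3 of control cells. DMSO was given to the controls according to the treatment protocol, although their treatment label reads none, and the dose of SAHA is printed as 10 without a complete unit. Whether replicate arrays stand for separate cultures is not stated, so the p-values cover the spread among these arrays alone, and this spread may be technical.

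Across the arrays, the median RMA signal was between 142.2 and 148.7 on the linear scale, and log2 values of all probe sets correlated at 0.9965 to 0.9980 (Pearson, across probe sets) within groups and at 0.9728 to 0.9738 between groups. At an adjusted p under 0.05 (limma with Benjamini-Hochberg adjustment), 60% of all genes passed, 31.1% higher and 28.9% lower in SAHA, so a single call is common here. Of the A204 markers, VIM, KRT8 and KRT18 had mean log2 signals of at least 12.63 in SAHA and 12.81 in control arrays, and SMARCB1 was at 7.22 ± 0.05 in SAHA and 7.74 ± 0.04 in control (SD, n = 3). Of these 4 markers, 3 fell, none rose and 1 did not pass, where 28.9% of all genes were lower. The differences of those that fell were -0.18 for VIM, -0.21 for KRT18 and -0.51 for SMARCB1. Of 12 measured markers of blood, endothelial, epithelial and skeletal muscle cells, 3 rose, 2 fell and 7 did not pass. Those that rose were the monocyte marker CD14 (10.94 ± 0.04 in SAHA and 8.94 ± 0.08 in control), the muscle filament gene DES, by 0.76, and the epithelial marker EPCAM, by 0.14. The other measured blood markers, PTPRC, CD3E and ITGAM, differed by 0.04, -0.04 and 0.04 and did not pass. The skeletal muscle markers MYOD1 (-0.12) and MYOG (0.12) did not pass either. The endothelial cadherin gene CDH5 fell by 2.19, while the endothelial markers VWF and PECAM1 were at 0.22 and 0.13 and did not pass. The epithelial cadherin gene CDH1 was lower by a difference of -0.17, a call that ended under 5 alternatives, among them a further quantile normalization (-0.0954). The treatment check genes also passed, CDKN1A (the p21 gene) with a rise of 1.30 and TYMS (thymidylate synthase) with a fall of 4.03. The part of these marker changes in the subunit differences was not tested.

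ATP1B2 was higher after SAHA by a wide margin, while the other 4 subunit genes differed by at most 0.59 log2 units between the groups. ATP1B2 encodes the beta subunit known in the nervous system as the adhesion molecule on glia (probe set 8004545, chromosome 17). Its log2 signal was 11.93, 11.81 and 11.85 in the SAHA arrays, against 7.12, 7.27 and 7.22 in the control arrays. The 3 SAHA values lay far above all control values, and the replicates of each group lay close together. The means were 11.86 ± 0.06 in SAHA and 7.20 ± 0.08 in control (SD, n = 3), a difference of 4.66 ± 0.06 (SE of the limma fit), or 25.3-fold on the linear scale. On the deposited linear scale the signals were 3899, 3579 and 3682 in SAHA, against 138.7, 154.1 and 148.9 in control. It was the 8th largest rise of 18417 genes, and its pooled SD of 0.0705 was near the median SD over all genes, 0.0706.  No background call was made, and if the control signal is background the fold is a lower bound. In such bulk RNA, more cells with the transcript and more transcript per cell cannot be told apart.

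ATP1B1, the beta subunit gene used most widely across tissues, was at 11.28, 11.29 and 11.25 in SAHA arrays and at 10.70, 10.68 and 10.66 in control arrays (log2, probe set 7907160, chromosome 1). The groups did not overlap, and the difference was 0.59 ± 0.04 (SE), or 1.51-fold. Its pooled SD of 0.021 was smaller than that of all but 2.7% of genes. ATP1B3, a beta subunit gene expressed in many cell types, gave 12.16, 12.10 and 12.07 in SAHA and 12.31, 12.23 and 12.30 in control (probe set 8083136, chromosome 3). Its SAHA values all lay below its control values, with a difference of -0.17 ± 0.05 (SE), the only one of the 5 that was negative. The 3 beta genes thus differed in size and in sign: ATP1B2 stood 4.07 log2 units above ATP1B1 in its change and 4.83 above ATP1B3. Levels of different probe sets were not compared, because probes differ in brightness.

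FXYD1 encodes phospholemman, the FXYD protein of heart and skeletal muscle, where its phosphorylation regulates the pump. Its log2 signal was 7.66, 7.74 and 7.76 in SAHA arrays, against 7.64, 7.46 and 7.69 in control arrays (probe set 8027760, chromosome 19). The groups overlapped, since the lowest SAHA value lay below the highest control value, and the difference of 0.12 ± 0.07 (SE) was close to the control SD of 0.12. Without control replicate 2 it was 0.0541, and after a further quantile normalization 0.0635. FXYD5 encodes dysadherin, a FXYD protein with a long extracellular part that is known to weaken cell adhesion. It gave 9.50, 9.36 and 9.43 in SAHA and 9.20, 9.14 and 8.95 in control (probe set 8027778, chromosome 19). All SAHA values were above all control values, with 9.36 as the lowest SAHA value and 9.20 as the highest control value, and the control SD was 0.13. The difference was 0.33 ± 0.07 (SE), or 1.26-fold.

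**Figure D1:**
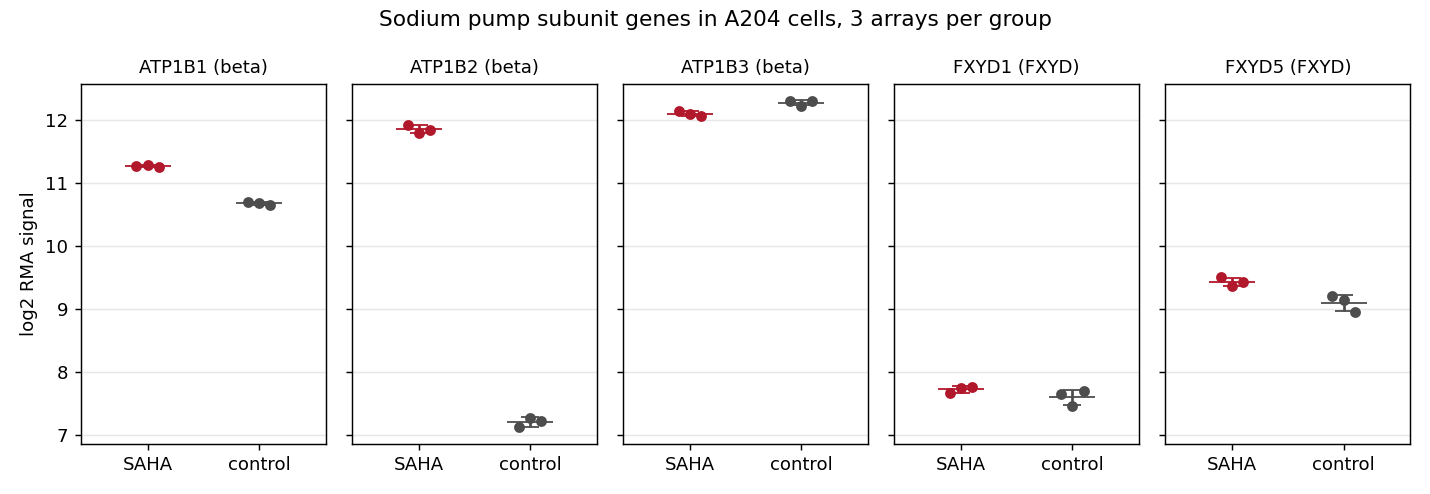
Log2 RMA signal (vertical axis) of the 5 sodium pump genes in SAHA arrays (left in each panel) and control arrays (right); points are arrays, horizontal bars are means and error bars are SD (n = 3). ATP1B2 was at 11.86 in SAHA and 7.20 in control, while the groups of FXYD1 overlap; levels are not comparable between panels.

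Of the 5 genes, 4 had SAHA values entirely above or below the control values, against 65.4% of all genes, and 4 passed the limma threshold of the fit over all genes, against 60% of all genes. These were ATP1B1, ATP1B2 and FXYD5, higher, and ATP1B3, lower. Since the choice of genes used this contrast, nothing is read from these counts. Without SAHA replicate 3 the number past the threshold was 3, as ATP1B3 missed it. Only ATP1B2 exceeded a 2-fold difference: 75.9% of all genes had a smaller absolute change than ATP1B1, 59.2% a smaller one than FXYD5, 42.0% a smaller one than ATP1B3 and 33.1% a smaller one than FXYD1.

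The promoters of the 3 beta genes are shown because their genes differed most in the size of the change. They are RefSeq sequences of GRCh38.p14, from 250 bases before to 50 bases after the annotated start, on the plus strand, with every CG dinucleotide in capitals. That of ATP1B2 lies at chr17:7646377-7646676, that of ATP1B1 at chr1:169106440-169106739 and that of ATP1B3 at chr3:141876393-141876692.
ATP1B2: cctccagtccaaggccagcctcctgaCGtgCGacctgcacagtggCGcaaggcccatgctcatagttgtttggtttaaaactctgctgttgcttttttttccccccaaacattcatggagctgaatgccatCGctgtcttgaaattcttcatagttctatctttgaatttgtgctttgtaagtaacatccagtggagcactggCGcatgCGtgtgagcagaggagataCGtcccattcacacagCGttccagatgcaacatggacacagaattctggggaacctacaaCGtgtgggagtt
ATP1B1: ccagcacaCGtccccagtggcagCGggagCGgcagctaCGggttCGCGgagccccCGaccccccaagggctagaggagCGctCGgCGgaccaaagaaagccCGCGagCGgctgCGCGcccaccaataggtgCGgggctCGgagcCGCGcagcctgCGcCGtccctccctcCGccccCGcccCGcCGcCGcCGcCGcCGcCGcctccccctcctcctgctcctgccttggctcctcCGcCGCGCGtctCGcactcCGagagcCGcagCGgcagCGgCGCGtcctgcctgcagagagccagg
ATP1B3: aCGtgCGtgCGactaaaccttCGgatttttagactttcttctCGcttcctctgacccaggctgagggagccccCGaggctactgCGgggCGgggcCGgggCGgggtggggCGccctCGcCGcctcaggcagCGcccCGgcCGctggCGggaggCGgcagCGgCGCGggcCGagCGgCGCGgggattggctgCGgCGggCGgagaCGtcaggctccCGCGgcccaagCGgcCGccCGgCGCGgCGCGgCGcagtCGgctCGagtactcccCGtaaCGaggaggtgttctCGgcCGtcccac
Each beta gene had 1 window here, and which start these cells use was not tested, so the counts hold for these windows alone. The ATP1B2 window held 9 CG dinucleotides and 49% G or C, against 41 and 77% for ATP1B1 and 45 and 75% for ATP1B3. The median over 34943 promoter windows of the same length was 14 CG dinucleotides, and 41.7% of windows held fewer than ATP1B2, 93.3% fewer than ATP1B1 and 96.5% fewer than ATP1B3. The GC box GGGCGG, searched on both strands, occurred 2 times in the ATP1B1 window and 4 times in that of ATP1B3, and 44.9% of all windows held it. The CCAAT box, searched as CCAAT on both strands, occurred 1 time in each of these 2 windows and in 34.6% of all windows, and TATAAA, searched likewise, in none of the 3 and in 11.6% of all. The ATP1B2 window held none of these 3 motifs. Matches of different motifs can share bases, and the CG within a GC box was counted under both. RefSeq lists 3 starts for FXYD1, with 7, 9 and 16 CG dinucleotides in their windows, and the FXYD5 window held 19. FXYD3 and ATP1B4 are subunit genes outside the rule and are described below. The FXYD3 window held 9 CG dinucleotides and none of the 3 motifs, the same as that of ATP1B2. The SAHA minus control difference of FXYD3 was -1.54. Whether window content goes with the change of a gene was not tested. In the ATP1B4 window there were 5 CG dinucleotides and 1 match of each motif, and this gene was not called. A match is a description of the letters, not a site in use, and an absent match says only that the letters are not in this window.

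Among the subunit genes outside the rule, 4 of 8 were measured, and they included the largest changes of the measured family after that of ATP1B2. FXYD7, a FXYD gene of the brain (probe set 8027770), had log2 signals of 10.56, 10.60 and 10.60 in SAHA, against 8.02, 8.27 and 7.94 in control. It rose by 2.51 ± 0.08 (SE), 5.70-fold, at adjusted p = 9.7e-08 (limma, n = 3 per group). FXYD3, a FXYD gene first found in mouse mammary tumours (probe set 8027748), had signals of 10.13, 10.02 and 10.05 in SAHA, against 11.50, 11.56 and 11.76 in control. It fell by 1.54 ± 0.07 (SE), 2.90-fold, at adjusted p = 5.76e-07 (limma). For both genes the groups were clearly apart. FXYD4, an FXYD gene induced by corticosteroids in kidney and colon, was at 5.60 ± 0.06 in SAHA and 5.65 ± 0.05 in control and did not pass (adjusted p = 0.457, limma). ATP1B4, a beta-like gene of muscle whose product in placental mammals is no longer a pump subunit, was at 5.30 ± 0.08 in SAHA and 5.33 ± 0.13 in control (adjusted p = 0.793, limma), and its difference of -0.03 turned positive without SAHA replicate 1 (0.0132) or control replicate 2 (0.0325). The median difference of these 4 genes was -0.04, against -0.0027 over all genes.

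**Figure D2:**
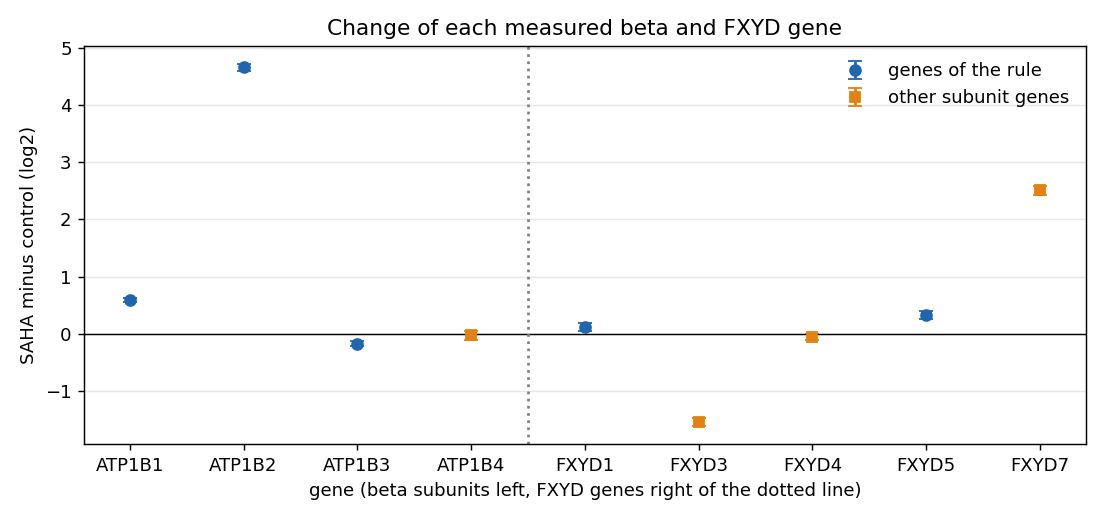
SAHA minus control on the log2 scale (vertical axis, error bars SE of the limma fit, 3 arrays per group) for the 4 measured beta genes and the 5 measured FXYD genes; circles are genes of the rule and squares are other subunit genes. ATP1B2 (4.66) and FXYD7 (2.51) stand above the rest, and FXYD3 (-1.54) below.

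The measured FXYD genes other than FXYD4 lie side by side on chromosome 19, in the RefSeq order FXYD3, LGI4, FXYD1, FXYD7 and FXYD5, and their changes differed in sign and size within this cluster. FXYD3 fell, while LGI4, which encodes a secreted protein of myelinating glia, rose by 0.52 ± 0.12 (adjusted p = 0.00646, limma). FXYD7 rose, and FXYD1 and FXYD5 on its 2 sides differed by 0.12 and 0.33. LSR, a tight junction and lipoprotein receptor gene beyond FXYD5, rose by 1.18 ± 0.06 (adjusted p = 1.12e-06, limma).

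Around ATP1B2, all 4 measured neighbours rose, each by less than 1 log2 unit (31.1% of all genes were higher). SHBG, the sex hormone-binding globulin gene, rose by 0.86, SAT2, a polyamine acetyltransferase relative, by 0.37, WRAP53, a telomerase RNA trafficking gene, by 0.45 and EFNB3, an ephrin ligand, by 0.69. Their adjusted p-values lay between 5.74e-05 and 0.000956 (limma). The change of ATP1B2 was 4.66 beside these. Near ATP1B1, the Golgi gene BLZF1 rose by 0.46 and the microtubule-associated gene CCDC181 by 0.60. The 2 nearest measured genes on the other side, 9 and 12 places away in the RefSeq order, did not pass. Near ATP1B3, RNF7, a ubiquitin ligase subunit, fell by 0.39 and GK5, a glycerol kinase gene, fell by 0.44. The nearest measured gene on each side of ATP1B3, 3 places away in the RefSeq order, did not pass. Over the 17 measured neighbours that were not genes of the rule, 9 rose, 3 fell and 5 did not pass, where 31.1% of all genes were higher and 28.9% lower.

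**Figure D3:**
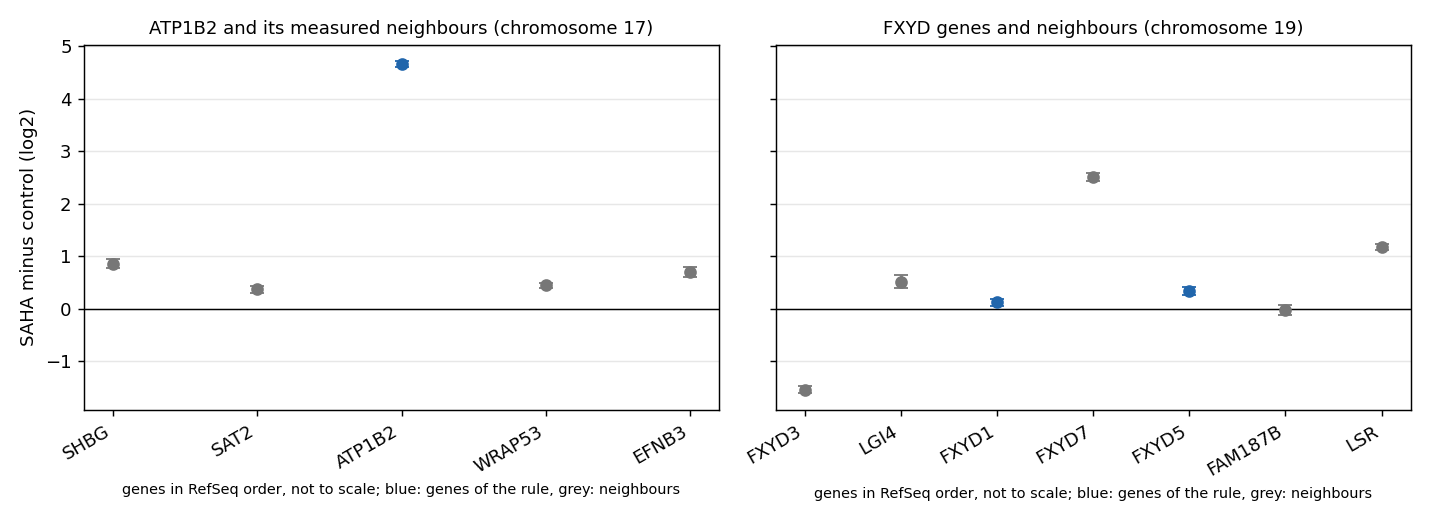
SAHA minus control on the log2 scale (vertical axis, error bars SE) for ATP1B2 and its 2 nearest measured genes on each side (left) and for the FXYD genes of chromosome 19 with their neighbours (right), in gene order and not to distance. ATP1B2 at 4.66 stands above neighbours at 0.37 to 0.86, and FXYD7 at 2.51 lies between FXYD1 at 0.12 and FXYD5 at 0.33.

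The list of related cation pump genes held proton-potassium and calcium pump genes and the small calcium pump regulators PLN and SLN. Of its 14 genes, 6 rose, among them SLN by 0.30, 2 fell and 6 missed the threshold, where 31.1% of all genes were higher and 28.9% lower, and the median difference was 0.21 against -0.0027 over all genes. ATP2B4, a plasma membrane calcium pump, had log2 signals of 9.65, 9.70 and 9.65 in SAHA, against 7.10, 6.67 and 6.85 in control. It rose by 2.79 ± 0.10 (SE), 6.92-fold (adjusted p = 1.4e-07, limma). ATP2A3, a calcium pump of the endoplasmic reticulum, rose by 1.34, ATP2B1, the widely expressed plasma membrane calcium pump, by 0.74 and ATP12A, the non-gastric proton-potassium pump that also pairs with a beta subunit, by 1.18. ATP12A was at 7.35 ± 0.13 in SAHA and 6.17 ± 0.12 in control.

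Partners and regulators of the pump moved both ways. Of 14 measured genes, 4 rose and 6 fell and 4 missed the threshold, where 31.1% of all genes were higher and 28.9% lower, and the median difference was -0.10. NEDD4L, a ubiquitin ligase for sodium channels and other membrane proteins, had signals of 10.65, 10.69 and 10.60 in SAHA, against 8.79, 8.85 and 8.70 in control. It rose by 1.87 ± 0.05 (SE), 3.65-fold (adjusted p = 4.82e-08, limma). ANK2 and ANK3, which encode ankyrins that anchor the pump and channels to the cytoskeleton, fell by 1.13 and 0.92, and SRC, a kinase reported to bind the alpha subunit, fell by 0.88.

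Of 20 measured sodium-coupled transporter genes, whose products use the gradient that the pump builds, 8 rose, 6 fell and 6 did not pass, where 60% of all genes passed (median 0.11). SLC6A9, the glycine transporter, was at 8.82 ± 0.07 in SAHA and 11.03 ± 0.03 in control and fell by 2.20, and SLC38A1, a glutamine transporter, fell by 1.07. SLC8A2, a sodium-calcium exchanger of the brain, rose by 0.90 and SLC23A2, the vitamin C transporter, by 0.84.

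Because ATP1B2 is known as a glial gene, glial markers were set beside it. Of 9 measured markers 1 rose, none fell and 8 did not pass, where 60% of all genes passed, and the number that passed was 2 without SAHA replicate 2 or after a further quantile normalization. Their means ran from 4.79 to 7.90 in SAHA and from 4.81 to 7.78 in control. Their summed signal was 9.88 in SAHA and 9.84 in control (log2 of the sum), a sum in which the brightest probe sets weigh most. The astrocyte markers GFAP and AQP4 were at 7.13 and 4.79 in SAHA and at 7.06 and 4.81 in control. S100B, the marker that passed, rose by 0.28, to 5.24 ± 0.12 in SAHA against 4.96 ± 0.04 in control (adjusted p = 0.0058, limma).

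**Figure D4:**
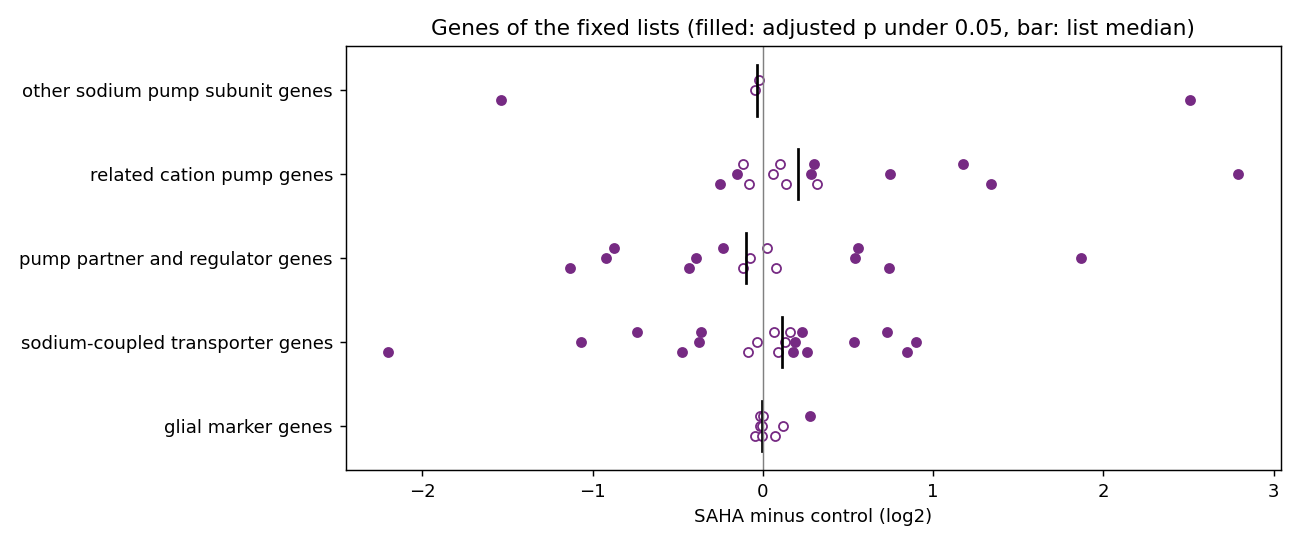
SAHA minus control on the log2 scale (horizontal axis) for every measured gene of 5 lists, 1 point per gene; filled points passed limma's adjusted p under 0.05 and black bars are list medians. Glial markers cluster at 0, while ATP2B4 (2.79), FXYD7 (2.51) and NEDD4L (1.87) lie farthest to the right and SLC6A9 (-2.20) farthest to the left.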

How the data were processed

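The files hold an intensity per probe set, deposited by the authors on a linear scale and made with RMA per the submitters' processing notes. The software that ran RMA, its version and the probe set definitions it used were not given in the sources used here. Labelling used the Ambion WT Expression Kit, per the labels' protocols. Intensities ran from 6.557 to 20338, and log2 was taken before anything else. Quantile normalization, a step of RMA, hides a change in total RNA per cell, and differences of dim genes may be too small.

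GEO's platform annotation, which can be old, gave 1 gene to 19460 of 33252 probe sets, several to 1754 and none to 12038. Entrez identifiers matched 19429 of the first to RefSeq (GRCh38.p14), used for names, gene order and promoters. Each of 18417 genes took its probe set with the highest mean. SAHA was compared with control by limma 3.58.1 in R 4.3.3 (lmFit and eBayes, no covariates, two-sided), with Benjamini-Hochberg adjusted p under 0.05 as threshold over all genes. The fit was tested on simulated data. SE is that of this fit and SD is over 3 arrays, whose number limits the precision.

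The members and gene lists were chosen with earlier results of these data known. The lists were other subunits, related cation pumps, partners and regulators, sodium-coupled transporters, glial markers, A204 markers, markers of other cell types and treatment check genes. Listed genes without a probe set of exactly 1 gene were not analysed here. Named were all members and other subunits, up to 4 genes per list with the largest change among those past the threshold whose groups did not overlap, and neighbours past the threshold among the 2 nearest measured on each side. The rule's genes nearest to ATP1B2 in log2 signal are not given, because that distance compares levels of different probe sets. KRT8, EPCAM, VWF, PECAM1, PTPRC, CD3E, ITGAM, MYOD1, MYOG, PLN, SLN, GFAP and AQP4 were named outside this rule. Alternatives were other scalings, probe set means, the replicate block, other variance options, filters on dim genes and each array left out.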

Additional observations from a re-analysis of the deposited data

How the results depend on the processing

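Every difference of the 5 genes kept its sign under all 11 alternatives run for it: ATP1B2 ran from 4.59 to 4.70, ATP1B1 from 0.58 to 0.62, ATP1B3 from -0.20 to -0.15, FXYD1 from 0.054 to 0.17 and FXYD5 from 0.26 to 0.42. A further quantile normalization moved ATP1B1 to 0.62 and ATP1B2 to 4.59. Each moved by more than its pooled SD (0.0208 for ATP1B1 and 0.0705 for ATP1B2), and the cause was not tested. Leaving out each array in turn gave 1 to 2 called glial markers, the second appearing without SAHA replicate 2, and a further quantile normalization gave 2. Without genes under the median level, which tests fewer genes, 3660 genes were higher and 3993 lower of the 9209 left. Called were 4 cation pump genes (of 4 left) and 6 partners (of 6 left). Of glial markers 0 were called (of 0 left), and of markers of other cell types 3 (of 3 left). Most of all genes left passed in this setting, so nothing is read from these counts. FXYD3 and FXYD7 passed under all 14 alternatives (limma), at -1.59 to -1.46 and 2.44 to 2.61. The call of CDH1 ended after a further quantile normalization (-0.0954), with cyclic loess (-0.13), and without SAHA replicate 2, SAHA replicate 3 or control replicate 3 (adjusted p = 0.0893, 0.0674 and 0.0625, limma). ATP1B4, not called, ran from -0.0948 to 0.0325 with 1 array left out, positive at 0.0132 without SAHA replicate 1 and at 0.0325 without control replicate 2. With the replicate number as a block, 5520 genes were higher and 5081 lower, and the difference of ATP1B2 was 4.66. No call changed among the 5 genes or the others named by the naming rule, while the called cation pump genes went from 8 to 9. Calls of single genes named outside that rule are not given for this block. Deviations from the group mean of arrays with equal replicate numbers correlated at -0.0304, -0.167 and -0.0042 across genes. Those of arrays with unequal numbers correlated at -0.0738 to 0.103. With 3 arrays per group these values depend on each other, so whether equal numbers mark a shared batch cannot be told.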
